A study of Mus musculus with 367 samples.

Results

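The RNA of 41 genes of the lysosome was followed in single cells of healing mouse skin. The genes were taken by symbol from a fixed list, which was chosen with earlier results of these data known. All 41 were found among the 50600 genes of the expression tables. The list held 10 glycosidases and hydrolases of glycosaminoglycans, 8 lipid and peptide hydrolases or their activators, 11 membrane proteins, 10 subunits of the proton pump, and the regulator Tfeb with the autophagy cargo receptor Sqstm1.

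The cells came from full-thickness excisional wounds on the back of Sm22-Cre;tdTomato mice on a mixed strain background, collected at post-wounding day 12, 15 or 21. In these mice Cre is driven by the promoter of Sm22 (Tagln), a contractile gene of smooth muscle and myofibroblasts, so that a cell is marked when it or a forebear used that promoter. No unwounded skin and no tdTomato-negative cells were among the samples used here. Wound tissue of 2 to 3 mice was pooled for a time point, living cells with high tdTomato were sorted, and single cells were captured on C1 chips and sequenced over the full transcript. Day 12 was covered by 3 captures, day 15 by 2 and day 21 by 2, and 295 cells passed the filters on depth and quality.

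Cells were put into 3 kinds by the FPKM (fragments per length of transcript and number of mapped fragments) of 3 genes that are not on the list. The 199 matrix cells had Col1a1, a fibrillar collagen chain, at 1000 FPKM or above with Rgs5 under 100 and Tyrobp under 50. The 58 mural cells had Rgs5, a pericyte gene, at 500 or above with Tyrobp under 50. The 27 myeloid cells had Tyrobp, an adaptor of myeloid receptors, at 500 or above. The remaining 11 cells met none of these limits. Between the limits the kinds were separated to different degrees, since the cells nearest the Tyrobp limit had 206.54 and 1343.40 FPKM, those nearest the Rgs5 limit 419.60 and 609.70, and those nearest the Col1a1 limit 994.06 and 1010.79.

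The lysosome breaks down material taken up from outside or delivered by autophagy. Its soluble hydrolases work in an acid lumen, which is kept acid by the V-ATPase, a rotary proton pump with a membrane sector that carries the protons and a cytosolic sector that splits ATP. Membrane proteins line the organelle and move lipids, ions and digestion products across it. TFEB and its relatives are transcription factors that bind a short palindromic motif at the promoters of many of these genes, known as the CLEAR element. Macrophages are known for a large lysosomal system, and fibroblasts also use it to turn over matrix that they take up.

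The sequences that follow are shown because they carry that motif. RefSeq promoter windows (GRCm38.p6) from 250 bases before to 50 bases after the transcription start were at hand for 35 of the 41 genes and for 27025 genes in all. CACGTG was found in 11 of the 35 (31.4%) and in 8.09% of all genes. The longer palindrome TCACGTGA, which holds CACGTG within it, was found in 6 of the 35 (17.1%) and in 1.12% of all genes. Flanked by G and C, this palindrome was found in 0 of the 35 and in 0.370% of all genes. These motifs read the same on both strands. Of the proton pump genes, 4 of 7 with a window held CACGTG. The stretches around the 6 longer motifs read as follows from 5′ to 3′ on the gene's strand, with TCACGTGA in capitals.

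Atp6v0d1 (chr8:105566035-105566094, minus strand): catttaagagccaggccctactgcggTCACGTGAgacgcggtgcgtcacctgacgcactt

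Atp6v0e (chr17:26676372-26676431, plus strand): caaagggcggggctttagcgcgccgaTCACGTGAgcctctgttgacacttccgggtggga

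Atp6v1a (chr16:44139358-44139417, minus strand): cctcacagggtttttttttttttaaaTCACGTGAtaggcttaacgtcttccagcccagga

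Clcn7 (chr17:25133371-25133430, plus strand): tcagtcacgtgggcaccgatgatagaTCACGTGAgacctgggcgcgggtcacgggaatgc

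Gla (chrX:134601200-134601255, minus strand): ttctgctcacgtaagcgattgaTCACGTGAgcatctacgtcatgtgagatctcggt

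Mcoln1 (chr8:3500447-3500506, plus strand): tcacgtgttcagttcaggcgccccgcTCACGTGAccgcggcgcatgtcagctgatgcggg

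The first base of the motif lay 4, 132, 228 and 46 bases before the start in Atp6v0d1, Atp6v1a, Gla and Mcoln1, and at offsets of 2 and 6 bases after it in Atp6v0e and Clcn7. For Atp6v0d1 this is the RefSeq start only, since the bases after it matched no annotated transcript of the gene (GENCODE M21) in full. The genes span the pump's membrane sector (Atp6v0d1, Atp6v0e) and its catalytic subunit (Atp6v1a), the chloride-proton exchanger of the lysosomal membrane (Clcn7), α-galactosidase A (Gla) and a calcium channel (Mcoln1). A match in a window is a description of the letters only.

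Lgmn, which encodes the asparaginyl endopeptidase legumain, and Laptm5, a lysosomal membrane protein of blood cells, are printed as well because they had the largest differences between myeloid and matrix cells below. Lgmn held CACGTG in a window of RefSeq, 50 bases before that start, with TCACGTG in capitals here. The bases after that start matched no annotated Lgmn transcript (GENCODE M21). The stretch lies inside the gene, which spans chr12:102394084-102439813 on the minus strand. The Laptm5 window is given whole, with TTCCTC in capitals, the reverse complement of GAGGAA, a motif core of ETS factors such as the myeloid regulator PU.1. GAGGAA, searched on both strands, was found in 12 of the 35 genes (34.3%) and in 31.3% of all genes.

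Lgmn (chr12:102439110-102439168, minus strand): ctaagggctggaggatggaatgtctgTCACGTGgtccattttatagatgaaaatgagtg

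Laptm5 (chr4:130913066-130913365, plus strand): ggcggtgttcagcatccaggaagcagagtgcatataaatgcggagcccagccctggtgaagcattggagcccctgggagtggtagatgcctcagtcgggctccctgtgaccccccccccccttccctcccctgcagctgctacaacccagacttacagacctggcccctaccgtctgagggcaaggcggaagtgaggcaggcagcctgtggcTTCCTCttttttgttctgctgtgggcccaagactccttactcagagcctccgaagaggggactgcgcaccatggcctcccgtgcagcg

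Depth, estimated from the steps between FPKM values, ran from capture medians of 995741 to 2733909 fragments a cell, with medians of 4845 to 6233 genes above 0. No pair of cells had identical profiles. The kinds were checked on marker lists that the limits did not use alone. The summed FPKM of 13 myeloid markers was 6011 to 48771 in myeloid cells, with a median of 0 in matrix and in mural cells, where it reached 1627 and 749. The summed level of 7 matrix fibroblast markers had a median of 25425 in matrix cells, 2143 in mural cells and 19.5 in myeloid cells. That of 8 mural markers had medians of 13.6, 1799 and 0.75. Of 4 neutrophil markers S100a8, Retnlg and Ly6g were at 0 in all 3 kinds, and S100a9 reached 420.16 FPKM in a myeloid and 321.51 in a matrix cell. Of 4 lymphocyte markers Cd3e was at 0 in all 3 kinds, and the summed level reached 25.0 in a matrix cell with a median of 0 in each kind. The sum of 5 endothelial markers had a median of 80.5 in myeloid cells (up to 1170), 0 in matrix cells (up to 5.42) and 0.165 in mural cells (up to 199). Of these 5, 4 were above 0 in at least 1 myeloid cell and 2 had a median above 0 there, while Emcn was at 0. Cd93, which some myeloid cells also carry, was the 1 tested between myeloid and matrix cells and was higher (5.53, adjusted p = 0.037). The part of these markers in the differences below was not tested. In 4 of the 27 myeloid cells Col1a1 was also at 1000 FPKM or above, 2 of them among the 4 myeloid cells of day 15 capture 2, and in 19 of the 58 mural cells it was at that level too, up to 15439. Tagln was at 2.93 ± 3.33 on the log2(FPKM + 1) scale in myeloid cells against 7.46 ± 0.82 in matrix cells (SD, n = 4 captures), which was lower at an adjusted p of 0.048.

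In an average cell the lysosomal genes took a small part of all RNA. The 41 genes together made a median of 0.793% of the FPKM in matrix cells, 0.532% in mural cells and 1.10% in myeloid cells. A median of 24 of the 41 were above 0 in a matrix cell, 20 in a mural cell and 28 in a myeloid cell. Over all genes the medians above 0 were 5805, 5166 and 4934, at median depths of 1.73e+06, 1.39e+06 and 2.15e+06 fragments. A single gene, Cd63, which encodes a tetraspanin of late endosomes and exosomes, made 49 to 59% of the summed level in the matrix cells of a capture, 38 to 50% in mural cells and 12 to 24% in myeloid cells, in captures with at least 3 cells of the kind. Without Cd63 the sum by capture was 2350 to 3164 FPKM in matrix cells, 1931 to 2864 in mural cells and 7104 to 10171 in myeloid cells. The myeloid captures were thus all above both other kinds, whose ranges overlapped.

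**Figure D1:**
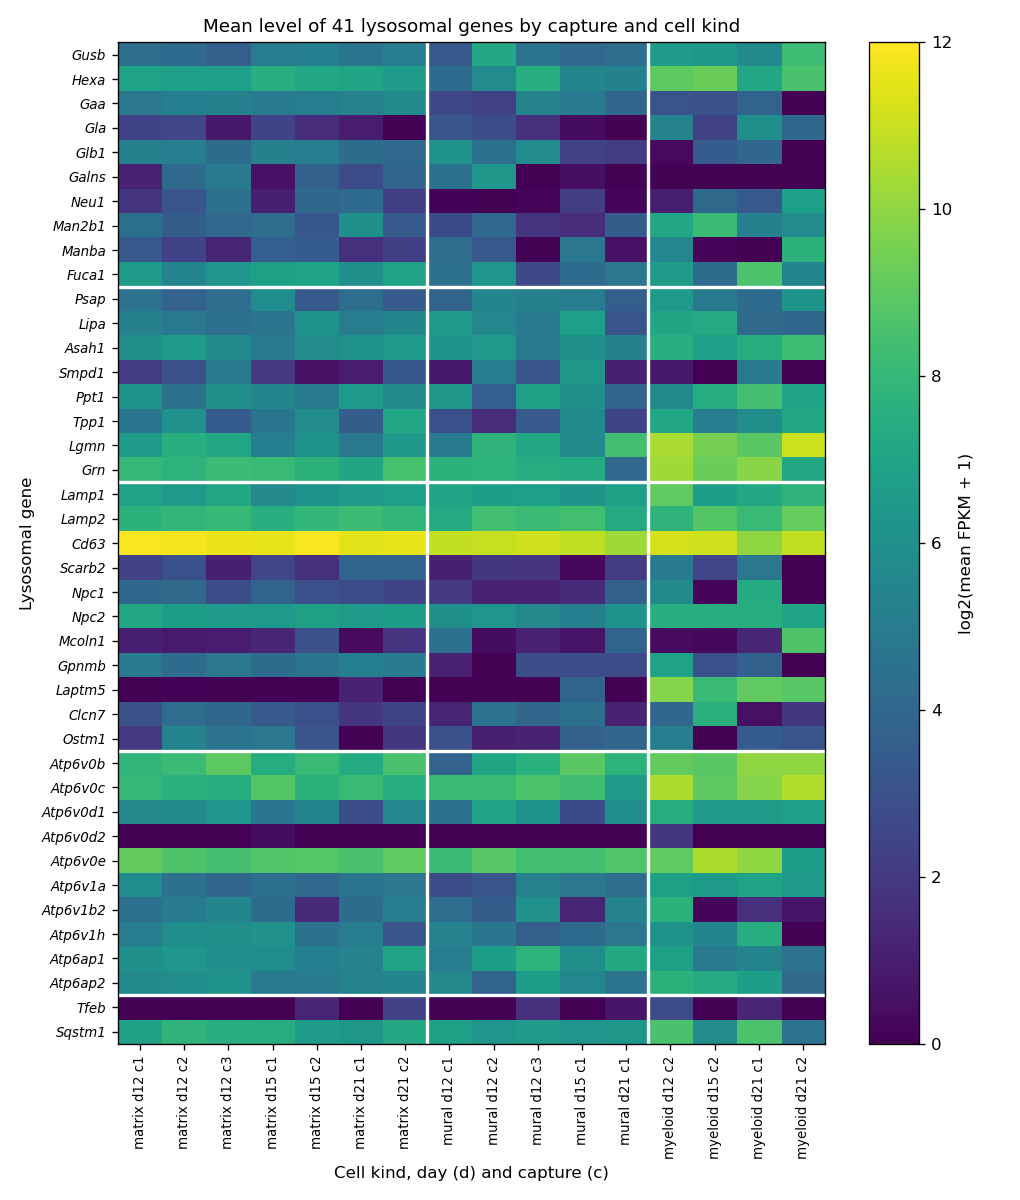
Level of each of the 41 lysosomal genes (rows, in their 5 groups) in each capture of matrix, mural and myeloid cells (columns) as log2(mean FPKM + 1), shown by colour. Columns are captures with at least 3 cells of the kind. Cd63 is high in every column, Laptm5 and Lgmn are brightest in the myeloid columns, and Atp6v0d2 and Tfeb are dark in nearly all.

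In matrix cells the levels spread over the whole range of the scale. Cd63 came first with 11.69 ± 0.15 on the log2(FPKM + 1) scale (SD, n = 7 captures), followed by 3 subunits of the membrane sector of the pump, Atp6v0e (8.78 ± 0.23), Atp6v0b (8.07 ± 0.58) and Atp6v0c (7.91 ± 0.44). The last 2 of these, Grn (7.90 ± 0.46), which encodes the precursor progranulin, and Lamp2 (7.90 ± 0.22), a main glycoprotein of the lysosomal membrane, did not differ by more than their spread. Hexa, the alpha subunit of β-hexosaminidase, was the glycosidase with the highest level, at 6.98 ± 0.31. The 3 subunits of the cytosolic sector, Atp6v1h (5.11 ± 1.03), Atp6v1a (4.60 ± 0.61) and Atp6v1b2 (4.28 ± 1.33), were below these 3 of the membrane sector and level with another, Atp6v0d1 (5.18 ± 1.12). Psap, the saposin precursor, was at 4.24 ± 0.85, and its median over cells was 6.76 FPKM although 181 of 199 cells were above 0. Tfeb was above 0 in 6 of 199 matrix cells, 6 of 58 mural cells and 4 of 27 myeloid cells.

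The first comparison asked which of these genes set the myeloid cells apart from the matrix cells of the same wounds. Laptm5, Lgmn and Atp6v0c were called higher in myeloid cells and Cd63 and Galns lower, in the 4 captures that held 3 or more cells of each kind. The Galns call rests on few cells, as given below. The differences on the log2 scale were 8.66 ± 1.01 (SE) for Laptm5, 3.79 ± 0.59 for Lgmn and 2.25 ± 0.49 for Atp6v0c, against −0.85 ± 0.21 for Cd63 and −3.62 ± 0.81 for Galns. The test was limma on log2(mean FPKM + 1) with the capture as a block, and adjusted p-values run over all 13085 genes tested. Of these, 6.08% were called at an adjusted p under 0.05 (1.66% higher, 4.42% lower), and 5 of the 40 lysosomal genes tested. Leaving out 1 capture changed the 217 higher and 579 lower calls to between 85 and 147 higher and between 23 and 166 lower. The median difference over all genes was −0.98 and 28.5% of genes were positive, while the 40 lysosomal genes had a median of 0.67 and 29 were positive. Atp6v0d2 did not pass the mean of 1 FPKM. With 2 other scalings the median of all genes moved to −0.78 and −1.19, so each difference is best read beside it.

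Among membrane proteins, Laptm5 had the largest difference. Its mean FPKM in the myeloid cells of day 12 capture 2, day 15 capture 2, day 21 capture 1 and day 21 capture 2 was 900.37, 273.63, 532.04 and 472.02, against 0.07, 0, 1.19 and 0 in the matrix cells of the same captures. The means on the log2 scale were 8.97 ± 0.70 and 0.31 ± 0.55 (SD, n = 4 captures each), with an adjusted p of 0.0011. The groups overlapped neither in captures nor in cells, since all 27 myeloid cells had between 69.14 and 2117.89 FPKM, while 8 of 199 matrix cells were above 0 and the highest had 21.40. Of the 58 mural cells 2 were above 0, and 1 of them, at 255.49, lay within the myeloid range. With a matrix level this near 0 the size of the difference rests on the pseudocount, and it was 11.17 with a pseudocount of 0.1 and 5.63 with 10. The gene lies at chr4:130913125-130936141 on the plus strand (GRCm38), with no exon shared with another gene.

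Lgmn is expressed in both kinds at different levels. Its mean FPKM in the 4 captures was 1423.49, 748.25, 483.44 and 2176.16 in myeloid cells and 183.35, 69.36, 27.07 and 83.94 in matrix cells. The log2 means were 10.01 ± 0.96 and 6.22 ± 1.12, with an adjusted p of 0.0066. The lowest myeloid capture was above the highest matrix capture, while single cells overlapped, since 123 of 199 matrix cells were above 0 with a median of 11.16 FPKM, against 26 of 27 myeloid cells with a median of 1151.49. Lgmn lies at chr12:102394084-102439813 on the minus strand.

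Atp6v0c encodes the proteolipid that forms the rotating ring of the pump's membrane sector. It had 1491.80, 526.82, 897.77 and 1590.07 FPKM in myeloid cells and 204.56, 207.18, 272.92 and 186.01 in matrix cells, or 10.01 ± 0.74 and 7.76 ± 0.24 on the log2 scale, with an adjusted p of 0.030. The captures did not overlap. The call was lost without any 1 of 3 of the captures, with adjusted p-values of 0.095 without day 12 capture 2, 0.056 without day 21 capture 1 and 0.096 without day 21 capture 2. The locus chr17:24163866-24169702 (minus strand) has 2 pseudogenes elsewhere that were counted as genes of their own, and reads could be split among them.

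Cd63 fell, by 0.85 on the log2 scale, which was nearly the median of all genes. Its FPKM was 2402.77, 2211.54, 1045.07 and 1930.50 in myeloid cells and 3492.93, 3751.23, 2862.55 and 3039.39 in matrix cells, so that the captures did not overlap (10.82 ± 0.54 and 11.67 ± 0.18 on the log2 scale, adjusted p = 0.043). Relative to the median of all genes its difference was 0.13, while those of Laptm5, Lgmn and Atp6v0c were 9.64, 4.77 and 3.23. The call was lost whenever 1 capture was left out, and without the myeloid cells that also had Col1a1 (3 captures, difference −0.98, adjusted p = 0.052), a setting in which the other 4 genes were called. Cd63 lies at chr10:128900989-128912822 on the plus strand and has 1 pseudogene among the genes measured.

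Galns encodes a sulfatase that acts on keratan sulfate and chondroitin sulfate. It was at 0.07, 0, 0 and 0 FPKM in myeloid cells and at 16.06, 12.43, 5.90 and 14.24 in matrix cells, with an adjusted p of 0.032. These means rest on few cells, since 32 of 199 matrix cells and 3 of 27 myeloid cells were above 0, and a single cell carried 42 to 100% of the matrix sum of each of these captures. The shares of cells above 0 were 16.1% and 11.1%, and these captures held 18 to 34 matrix cells but 3 to 12 myeloid cells. Galns passed the filter of 1 FPKM through its matrix means. The part of the unequal cell numbers in this difference was not tested. The call was lost whenever 1 capture was left out, and with no low-value filter, all cells or a pseudocount of 10.

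**Figure D2:**
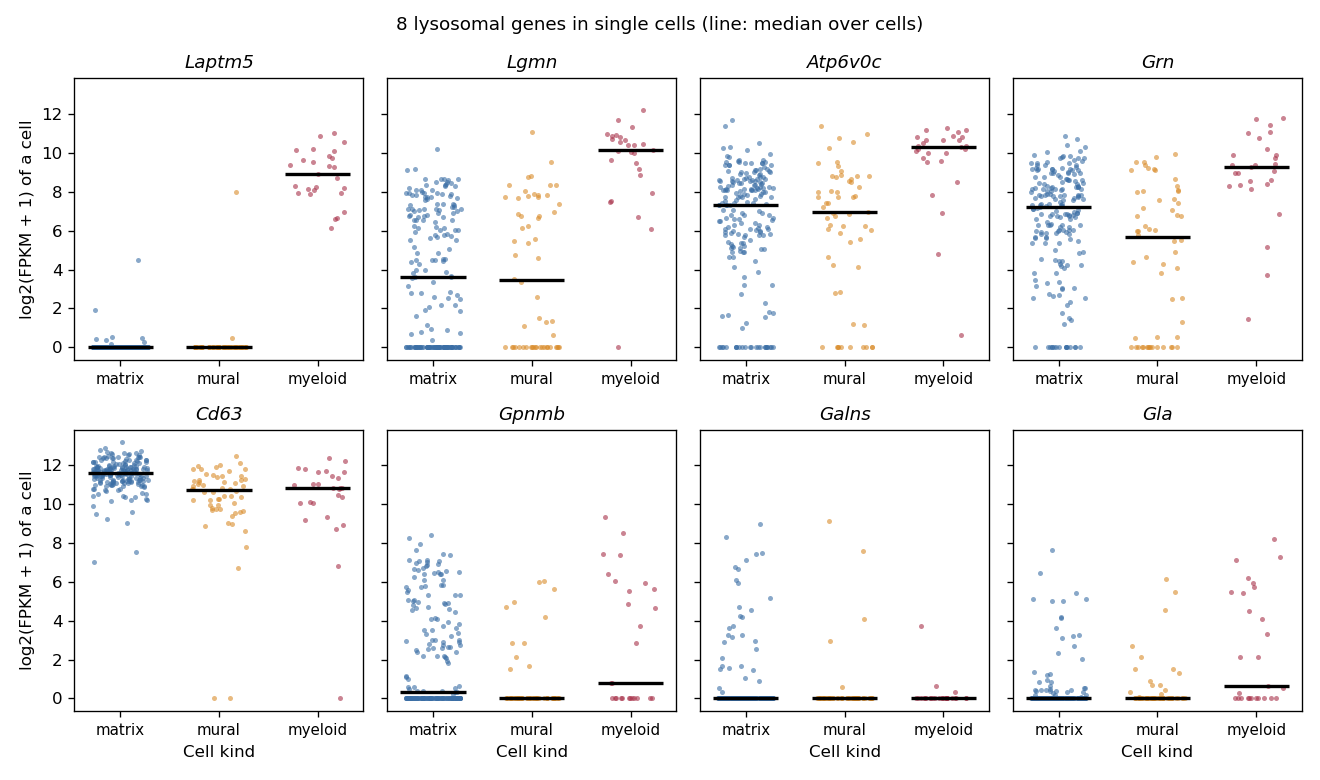
FPKM of 8 lysosomal genes in each single cell as log2(FPKM + 1), for the 199 matrix, 58 mural and 27 myeloid cells, with each point 1 cell and the line the median over cells. All myeloid cells are above all matrix cells in Laptm5, and 1 mural cell lies within their range. Lgmn, Atp6v0c and Grn are shifted upward in myeloid cells with overlap, Cd63 is highest in matrix cells, Galns is at 0 in most cells of every kind, and Gla in most matrix and mural cells.

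The other hydrolases moved in both directions without passing the test. Gla had a difference of 3.16 (adjusted p = 0.081), with 40.06, 4.08, 62.82 and 15.17 FPKM in myeloid cells against 4.79, 1.91, 0.92 and 0.04 in matrix cells, higher in 4 of 4 captures. Gaa, the acid α-glucosidase that degrades glycogen, had a difference of −2.81 (adjusted p = 0.133), with 7.66, 6.80, 13.74 and 0.04 against 34.96, 32.59, 38.32 and 52.53. Glb1, the lysosomal β-galactosidase, had a difference of −2.71 (adjusted p = 0.142), with 0.22, 10.34, 14.52 and 0 against 33.80, 34.25, 17.80 and 15.93. The 10 glycosidases and glycosaminoglycan hydrolases thus ran from −3.62 (Galns) to 3.16, with 6 positive and a median of 0.68. The 1 called lower was the sulfatase Galns. Of the 8 lipid and peptide hydrolases and activators 7 were positive, with a median of 1.34 and Lgmn as the 1 called.

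The proton pump and the membrane proteins leaned upward as well. Of the 9 pump subunits tested 7 were positive, with a median of 1.05 and Atp6v0c as the 1 called. Atp6v1a, the catalytic subunit, had a difference of 2.21 in 4 of 4 captures (adjusted p = 0.151), and Atp6v0b, another proteolipid, of 1.47 (adjusted p = 0.092). Of the 11 membrane proteins 8 were positive, with a median of 0.47. Gusb, the β-glucuronidase (1.96), Ppt1, a thioesterase (1.70), Asah1, the acid ceramidase (1.26), and Lamp1 (1.2), with Lamp2 a main membrane glycoprotein, were each higher in 4 of 4 captures without passing the test. Lipa, the acid lipase (0.28), and the accessory pump subunits Atp6ap1 (−0.49) and Atp6ap2 (1.05) varied in direction between captures. Summed without the 5 called genes, the other 36 had 4692 to 6355 FPKM in the myeloid cells of a capture and 2043 to 2880 in matrix cells. The 6 genes with TCACGTGA in their window had differences of 0.29 to 3.16 with a median of 1.53, beside a median of 0.70 in the 29 others with a window, of which 20 were positive. Between myeloid and mural cells the order was the other way, with medians of 0.67 and 1.81, and between mural and matrix cells the medians were −0.21 and −0.68. Among the 6 genes, the myeloid mean of Mcoln1 at day 21 rested mostly on 1 cell of 1231.60 FPKM. That of Clcn7 was 194.99 at day 15 against 13.80 and 1.35 at days 12 and 21.

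**Figure D3:**
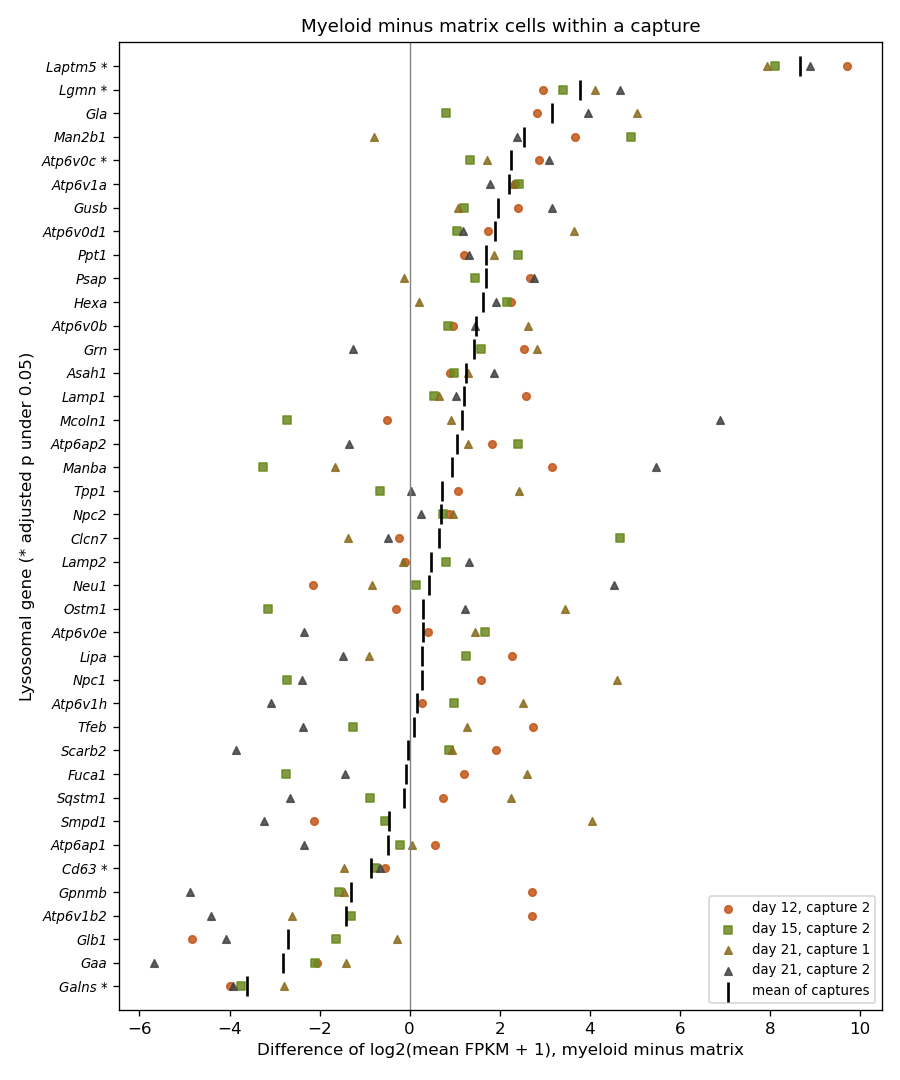
Difference between myeloid and matrix cells on the log2(mean FPKM + 1) scale for the 40 lysosomal genes tested, with each point 1 of 4 captures (shape by day), the black tick the mean of captures and an asterisk for the 5 genes called at an adjusted p under 0.05. Of the 40 means, 29 are above 0, Laptm5 is far to the right of all others, and many genes have captures on both sides of 0.

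The d subunit of the pump's membrane sector has a general form, Atp6v0d1, and a form known from osteoclasts and some macrophages, Atp6v0d2. Atp6v0d1 had 172.84, 87.31, 90.77 and 108.83 FPKM in the myeloid cells of the 4 captures, above the 51.11, 41.57, 6.31 and 47.47 of the matrix cells, with an adjusted p of 0.218. Atp6v0d2 was above 0 in 2 of 27 myeloid cells, both of day 12 capture 2 with a highest value of 21.45 FPKM, in 2 of 199 matrix cells and in 0 of 58 mural cells (at most 5.17% of cells with a value above 0, for counting error only, which does not limit the share of cells that express the gene). The d subunit of all 3 kinds was thus measured almost wholly as Atp6v0d1.

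Lysosomal genes outside the list were counted in the same comparison. Of 11 cathepsins tested, which are the main lysosomal proteases, 3 were higher and 0 lower, with a median of 1.13, and Ctss (10.60, adjusted p = 0.0002) and Ctsc (4.41, adjusted p = 0.022) were among those called, while Ctsk, a collagen-degrading protease, had a difference of −3.61 (adjusted p = 0.083) and Ctso of −2.93. Of 20 other hydrolases and cofactors, Cd68 (9.61, adjusted p = 0.0004), a macrophage glycoprotein, was among 2 called higher, and Aga (−4.41, adjusted p = 0.0497), which cleaves asparagine-linked sugars, was the 1 called lower, with a median of 0.32. Of 10 other membrane proteins and channels 1 was lower, Laptm4b (−3.85, adjusted p = 0.047), a relative of Laptm5, with a median of −0.31. In 3 further lists limma called 0 genes, namely 8 other pump subunits with a median of 0.83, 6 genes of mannose 6-phosphate sorting with 0.14, and 10 of the MiT/TFE factors and their regulators with 0.12.

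The second comparison set the mural cells against the matrix cells in 5 captures that held 3 or more cells of each. Cd63 was lower in mural cells in 5 of 5 captures, by 0.85 ± 0.12 (SE) on the log2 scale, and was the 1 lysosomal gene of 39 called. Of all 13821 genes tested, 1.82% were called (0.998% higher, 0.818% lower), and their median difference was −0.22. The lysosomal genes had a median of −0.44, with 12 positive and 27 negative. The FPKM of Cd63 in day 12 captures 1, 2 and 3, day 15 capture 1 and day 21 capture 1 was 1899.00, 1945.37, 2266.66, 1819.35 and 1263.53 in mural cells and 3736.73, 3492.93, 3178.09, 3123.84 and 2862.55 in matrix cells. The captures did not overlap, the log2 means were 10.82 ± 0.31 and 11.67 ± 0.15 (SD, n = 5), and the adjusted p was 0.0073. Over single cells the medians were 1698.11 and 3142.45. Relative to the median of all genes the difference was −0.63.

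Gpnmb, a transmembrane glycoprotein of lysosomes and melanosomes, had the largest difference, but missed the threshold at −2.71 ± 0.66 (adjusted p = 0.076). Its FPKM in the 5 captures was 1.16, 0, 6.42, 6.36 and 6.01 in mural cells and 28.96, 17.47, 26.25, 17.66 and 34.75 in matrix cells, without overlap, and it was above 0 in 11 of 58 mural cells and 101 of 199 matrix cells. Neu1, the lysosomal sialidase, had 0.08, 0, 0.13, 3.56 and 0.14 against 2.53, 8.00, 20.69, 1.08 and 17.14 FPKM, a difference of −2.40 (adjusted p = 0.223) with 1 capture in the other direction. Man2b1 and Fuca1 remove mannose and fucose from glycans, and each had a difference of −1.74 (adjusted p = 0.259 and 0.248). Man2b1 had 5.43, 16.25, 2.47, 1.89 and 10.54 FPKM in mural cells against 20.36, 10.58, 16.26, 18.44 and 63.12 in matrix cells, and Fuca1 had 21.01, 77.66, 5.27, 17.49 and 26.33 against 94.45, 41.09, 76.73, 112.58 and 62.45. Both were higher in mural cells in day 12 capture 2 only. Npc1, which exports cholesterol with Npc2 (−1.63, adjusted p = 0.334), had 3.06, 1.30, 1.29, 1.77 and 11.84 against 15.81, 16.61, 6.41, 13.67 and 5.79, with day 21 capture 1 in the other direction. Hexa (−1.37, adjusted p = 0.259) had 17.18, 54.71, 185.76, 43.33 and 37.06 against 123.85, 108.70, 109.61, 189.49 and 126.55, with day 12 capture 3 in the other direction. Grn (−0.94), Npc2 (−0.83) and Sqstm1 (−0.74) were lower in 5 of 5 captures without passing the test. By group the medians were −0.92 in glycosidases and glycosaminoglycan hydrolases and −0.03 in lipid and peptide hydrolases. They were −0.79 in membrane proteins and −0.33 in pump subunits. Of the cathepsins Ctsk was lower (−1.22, adjusted p = 0.016) as 1 of 11 with a median of −1.02, and in the other companion lists limma called 0.

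**Figure D4:**
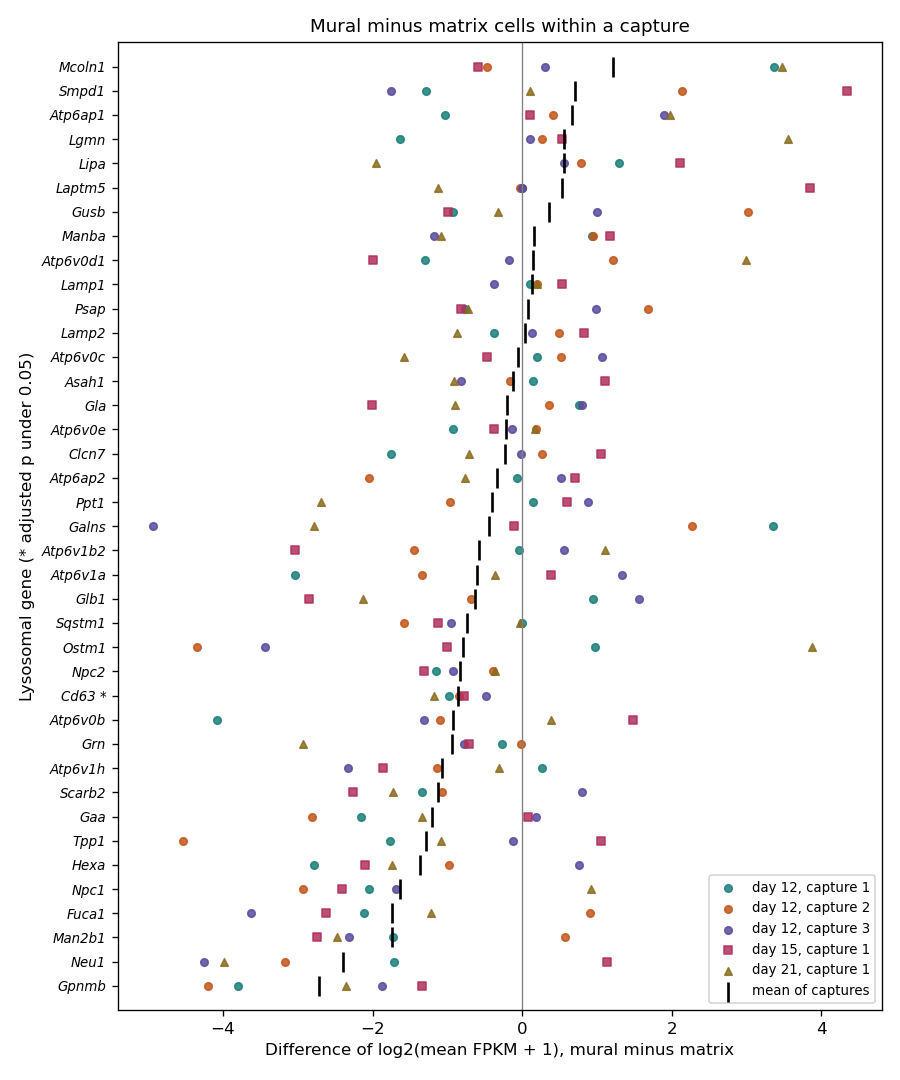
Difference between mural and matrix cells on the log2(mean FPKM + 1) scale for the 39 lysosomal genes tested, with each point 1 of 5 captures (shape by day) and the black tick the mean of captures. Cd63, with the asterisk at −0.85, is the 1 gene called and its points lie close together, while Gpnmb at the bottom has the lowest mean with widely spread points, and 27 of the 39 means are below 0.

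Myeloid and mural cells could be set side by side with 3 or more cells of each in day 12 capture 2 and day 21 capture 1, which leaves 1 residual degree of freedom, so the values are given as a description. The 40 lysosomal genes had a median difference of 1.63, with 2.11 and 1.54 in the single captures, and 34 were positive, beside −0.53 for 12100 genes. Laptm5 (9.40) came first. Tpp1 (4.56), a tripeptidyl peptidase, had 141.00 and 60.84 FPKM in the myeloid cells of the pair of captures against 1.91 and 4.41 in mural cells, and Gla (4.21) had 40.06 and 62.82 against 6.40 and 0.04. Grn (4.15) had 1243.66 and 936.38 against 213.13 and 16.35, Npc1 (4.10) had 51.82 and 164.43 against 1.30 and 11.84, and Gpnmb (3.91) had 120.97 and 12.05 against 0 and 6.01. In all 6 genes both myeloid values were above both mural values, but they were picked as the largest differences of these same captures. The share of all genes with this pattern was not counted. Cd63 differed by 0.02 over the pair, with 0.30 and −0.27 in the single captures, so its level in myeloid cells lay beside that of mural cells and below that of matrix cells. These contrasts share cells with those above. A joint limma fit of the 3 kinds, added after the data were seen, called Man2b1, Atp6v0c, Hexa, Laptm5, Gla and Grn higher in myeloid than in mural cells, beside 2.15% of 14030 genes higher and 4.33% lower.

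The last comparison followed the matrix cells over the 3 days of healing, with the capture as the replicate (3, 2 and 2). The limma test called 0 of 38 lysosomal genes in each of the 3 comparisons of days, and of 13552 genes 0 (0%) between days 15 and 12, 1 (0.00738%) between days 21 and 12, and 0 (0%) between days 21 and 15. At an unadjusted p under 0.05 there were 2, 2 and 1 lysosomal genes. Their median differences were −0.18, −0.10 and −0.04, beside −0.10, −0.19 and −0.05 over all genes.

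Lgmn had 94.96, 183.35 and 138.81 FPKM in the matrix cells of day 12, 35.21 and 69.36 at day 15, and 27.07 and 83.94 at day 21. Every later capture was below every day 12 capture, with differences of −1.42 at day 15 (p = 0.033, adjusted p = 0.811) and −1.47 at day 21 (p = 0.029, adjusted p = 0.661). It was above 0 in 64 of 75, 30 of 72 and 29 of 52 matrix cells of the 3 days, with cell medians of 106.94, 0 and 4.70 FPKM. Over all kept cells, the captures of day 12 had medians of 6233, 6173 and 5801 genes above 0. Those of day 15 had 5339 and 4845, and those of day 21 had 5888 and 5406. Median fragments were lowest at day 15 (1015857 and 995741). The part of this in the counts of Lgmn was not tested. When the log2 values of the cells were averaged in place of their FPKM, Lgmn passed the threshold as lower at both later days. It was the 1 of 31 lysosomal genes tested, beside 0.945% and 0.885% of 6667 genes lower (0.165% and 0.42% higher). In this setting the genes as a whole also shifted downward, with a median difference over all of them of −0.48 at day 15 and −0.39 at day 21. Of the 31 lysosomal genes, 6 were positive at each of these days.

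Ostm1, the partner subunit of the exchanger Clcn7, had 3.00, 41.84 and 22.96 FPKM at day 12, 25.68 and 7.92 at day 15, and 0.04 and 2.68 at day 21. Both day 21 captures were below all others, with differences of −3.03 against day 12 (p = 0.020, adjusted p = 0.623) and −2.98 against day 15 (p = 0.033, adjusted p = 0.862), and 28 of 75, 28 of 72 and 8 of 52 cells were above 0. Atp6v1b2, of the cytosolic sector of the pump, had 19.72, 30.73 and 44.46 at day 12, 18.20 and 1.78 at day 15, and 18.04 and 33.26 at day 21. Its difference of −2.09 at day 15 (p = 0.032, adjusted p = 0.811) rested mostly on 1 of its captures, since the other was just below the lowest of day 12.

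The next largest differences at day 15 were not called either. Smpd1, the acid sphingomyelinase (−2.08 at day 15), had 3.36, 6.83 and 30.05 FPKM, then 2.98 and 0.46, and 0.94 and 8.45 at day 21. Mcoln1 (1.21 at day 15) had 1.00, 0.80 and 0.87, then 1.43 and 6.84, and 0.29 and 2.46. Manba, the lysosomal β-mannosidase (1.21 at day 15), had 9.12, 4.26 and 1.35, then 10.95 and 10.24, and 2.17 and 3.73. In each of these the day 15 captures lay outside the range of day 12, with the day 21 captures inside or across it for Smpd1 and Manba and on both sides of day 12 for Mcoln1.

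At day 21, Scarb2, the sorting receptor of glucocerebrosidase, had 13.04 and 13.59 FPKM against 4.20, 7.05 and 1.10 at day 12 and 4.77 and 2.08 at day 15, a difference of 1.69 from day 12 (p = 0.083, adjusted p = 0.726), with both captures above all earlier ones. Atp6v0d1 (−1.66) had 49.86, 51.11 and 78.21 at day 12, 25.20 and 41.57 at day 15, and 6.31 and 47.47 at day 21, so its difference rested on the first day 21 capture. Clcn7 (−1.58) had 6.89, 18.65 and 14.96, then 9.38 and 6.65, and 2.78 and 4.39, with both day 21 captures lowest. Atp6v1h (−1.52), a regulatory subunit of the cytosolic sector, had 32.76, 57.16 and 61.67, then 65.45 and 22.32, and 32.88 and 7.94. Gla (−1.47 between days 21 and 15) had 4.39, 4.79 and 0.76, then 4.26 and 1.91, and 0.92 and 0.04. Galns (−1.22 at day 15, 1.19 between days 21 and 15) had 1.2, 16.06 and 29.72, then 0.51 and 12.43, and 5.90 and 14.24, with the captures of days 12 and 15 farther apart than the means of the days.

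**Figure D5:**
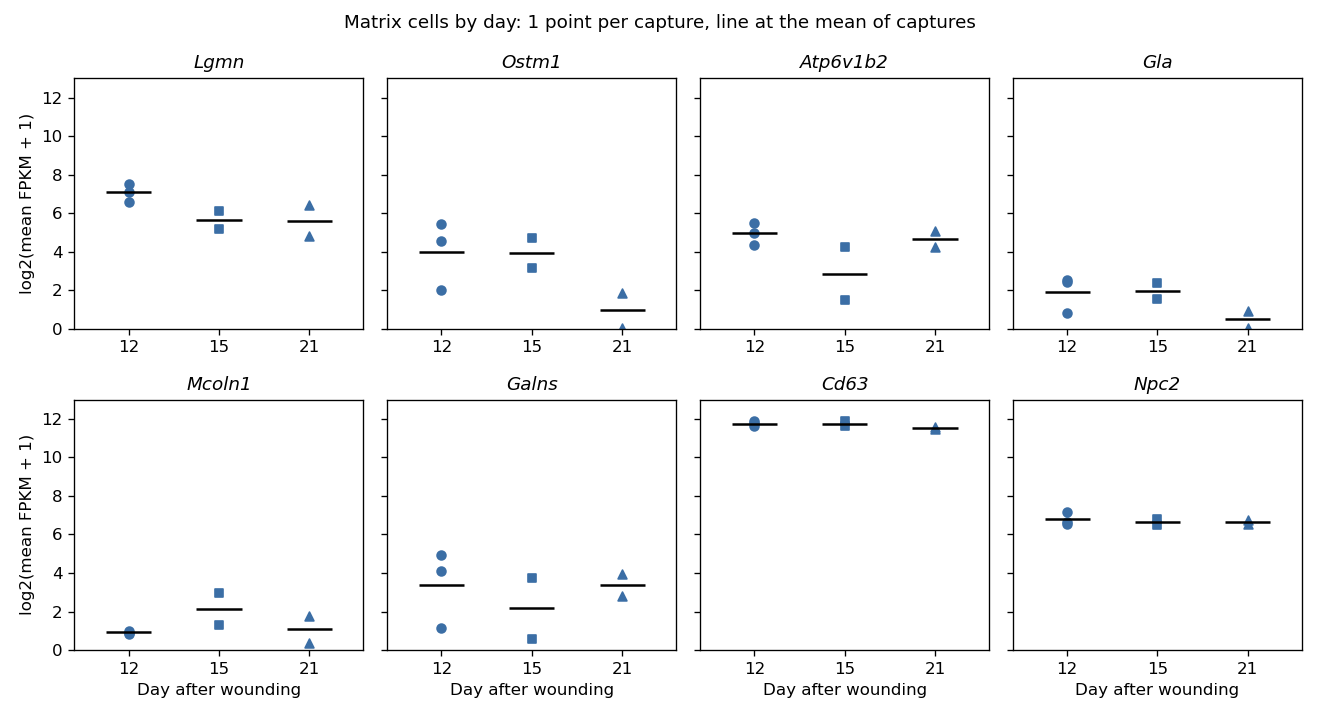
Mean FPKM of 8 lysosomal genes in the matrix cells of each capture as log2(FPKM + 1) against post-wounding day (12, 15 or 21), with each point 1 capture and the line the mean of captures. The day 12 points of Lgmn are above and the day 21 points of Ostm1 below those of the other days, Galns captures of 1 day lie far apart, and Cd63 and Npc2 stay within a narrow range.

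Cd63 had the smallest spread over the 7 matrix captures (SD 0.15 on the log2 scale) of the genes above 1 FPKM in mean, with 3736.73, 3492.93 and 3178.09 FPKM at day 12, 3123.84 and 3751.23 at day 15, and 2862.55 and 3039.39 at day 21. Its differences were −0.02, −0.23 and −0.21 with standard errors of 0.21 to 0.23, none of them called. Among myeloid cells Gpnmb was above 0 in 12 of 15 cells at day 12, 2 of 4 at day 15 and 1 of 8 at day 21, and 1 of these day 12 cells, both day 15 cells and the day 21 cell had Col1a1 at 1000 FPKM or above. With 1 or 2 captures of at least 3 myeloid cells a day, no test between days was made in myeloid cells.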

How the data were processed

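Single-cell RNA was sequenced from 367 cells in 7 C1 captures. The authors aligned reads with Bowtie 1.0.0 and RSEM to mm10 with GENCODE M13, and deposited FPKM values, which already correct for length and depth and hold no counts, so count tests and count-based normalization were not run. Depth was estimated from the steps between FPKM values on 9426 single-transcript genes, and cells were kept at or above the study's own minimum of fragments, with at most 11000 genes and 15% mitochondrial FPKM (295 cells). Cells of 1 sample each were grouped by capture and kind. Positions are those of GENCODE M21 on GRCm38.

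The mean FPKM over the cells of a kind in a capture entered limma 3.58.1 (R 4.3.3) as log2(mean + 1) with a variance trend, over genes whose mean reached 1 FPKM, in captures that held 3 or more cells of each kind and with the capture as a block. Days were compared among matrix cells in 1 fit of 7 captures. Tests were two-sided and p-values adjusted by Benjamini and Hochberg over all genes tested, with a threshold of 0.05. Tables were made with Python 3.11.15, numpy 2.4.6 and pandas 2.3.3 and figures with matplotlib 3.10.9. The kinds were formed from measured RNA of 3 genes, and differences in genes that go with these are larger for it. Whether captures of a day came from different mice is not given in the sources used here, so p-values measure only the spread between captures. A mean over 3 to 5 myeloid cells can rest on 1 cell.

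On simulated data the comparison of myeloid with matrix cells (12193 genes) recovered 7.46%, 62.7% and 92.4% of genes changed by 2, 4 and 6 on the log2 scale, that of mural with matrix cells (13132 genes) 43.3%, 97.0% and 100%, and that of days 21 and 12 (12816 genes) 29.9%, 88.1% and 87.9%. In these simulations only genes above a minimum mean level were changed. Means per capture were drawn with a smoothed spread, without zeros of single cells and without unequal cell numbers. The rates thus do not cover sparse genes such as Galns. Capture numbers are not stated to pair captures across days, and the main fit of days used no such pairing. The 6 pairs of captures with the same number had correlations of −0.0059 to 0.0269 between their deviations from the day mean. Where a day has 2 captures these deviations mirror each other, so the values are not independent and cannot show that pairing is absent.

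The genes and lists were chosen with earlier results of these data known. All 41 genes are named, with values by capture for those called or among the 6 largest differences of a comparison and for Atp6v0d1 and Atp6v0d2. Of the other lists, up to 4 genes with the largest differences are named. Alternatives covered the pseudocount (0.1 and 10), the low-value filter, scaling, averaging, limits of the kinds, kept cells, variance trend, block, fewest cells and each capture left out. A joint fit of the 3 kinds was added after the data were seen. The droplet data and other assays of the study were not analysed here.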

Additional observations from a re-analysis of the deposited data

Results flagged for a closer look

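Of 79 differences by capture, 4 had 1 capture far from the others by Dixon's test at the 95% level, and chance flags about 1 in 20. Hexa differed by 0.2 on the log2 scale between myeloid and matrix cells in day 21 capture 1, against 1.92 to 2.25 in the other captures. Gaa differed by −5.68 in day 21 capture 2, against −2.11 to −1.42. Between mural and matrix cells, Laptm5 differed by 3.85 in day 15 capture 1, against −1.13 to 0 in the others, and 1 of its 18 mural cells, at 255.49 FPKM, carried the mean. Grn differed by −2.93 in day 21 capture 1, against −0.77 to −0.01.

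In the 11 cells that met the limits of no kind, Laptm5 was above 0 in 1 cell, at 33.3 FPKM. That cell of day 21 capture 1 had Tyrobp at 206.54 and Col1a1 at 50.76 FPKM.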

How the results depend on the processing

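Laptm5 was called higher in myeloid than in matrix cells in all settings tried. Lgmn was lost only without the low-value filter (adjusted p = 0.110), and Atp6v0c also with a pseudocount of 10 (0.068) and without a variance trend (0.119). Against 3 lysosomal genes called higher, there were 1 with no low-value filter, 6 with the mean over cells of log2(FPKM + 1) and 5 with at least 1 cell of both kinds, and 2 to 3 when 1 capture was left out. Against 2 called lower, there were 0 with a pseudocount of 10, no filter or all cells, 1 with median-ratio scaling, no variance trend, no replicate block, or myeloid cells without Col1a1, 4 with at least 1 cell, and 0 in each fit that left out 1 capture. Between mural and matrix cells, against 1 lower, there were 0 with no filter, no trend or at least 1 cell, 6 with the mean of logs, 2 with doubled limits of the kinds, and 1 to 1 without 1 capture. Over all genes, the myeloid comparison called 30 of 24125 higher with no filter and 331 of 6859 with the mean of logs. At least 1 cell gave 353 higher and 2565 lower of 13311. A pseudocount of 10 gave 74 of 13085 lower, and all cells 281 of 13178. The mural comparison called 425 of 7223 lower with the mean of logs and 150 of 13739 with doubled limits. With no filter, no trend and at least 1 cell it called 1 of 25870, 23 of 13821 and 66 of 13664 lower. In the mural comparison Cd63 had an adjusted p of 0.243 with no filter, 0.449 with no trend and 0.184 with at least 1 cell. The mean of logs called 1 lysosomal gene lower, Lgmn, at day 15 and at day 21 against day 12, where the main fit of days called 0. Beside it, 0.945% and 0.885% of all 6667 genes in that setting were called lower. Over all genes the split of higher and lower calls was 217 and 579 in the myeloid comparison, 203 and 246 with median-ratio scaling, and 227 and 1105 with each cell scaled to 1000000. It was 138 and 113 in the mural comparison, 154 and 82 with median-ratio scaling, and 118 and 120 with scaled cells. The lysosomal genes' median difference was positive in every myeloid against matrix setting (0.32 to 1.04) and negative in every mural against matrix setting (−0.99 to −0.23). The median over all genes was negative throughout, at −1.83 to −0.18 and −0.60 to −0.03. With at least 1 cell of both kinds, the −0.99 stood beside −0.60. Uncalled day differences reversed for Manba at day 15 with all cells (−0.0729), and for Galns without day 15 capture 1 (0.357 at day 15, −0.390 between days 21 and 15), whose values without day 15 capture 2 were −2.80 and 2.76. With the capture number as a replicate block, 0 lysosomal genes were called in the 3 comparisons of days, and the 1 gene of all genes called between days 21 and 12 was lost. The causes were not tested. The tested captures held 3 to 12 myeloid cells. On simulated means of this comparison, differences under about 4 on the log2 scale were often missed, and sparse genes were not covered.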

Other observations

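Myeloid cells of 2 day 12 captures were too few for the test. The 2 cells of capture 1 had mean FPKM of 616.75 for Laptm5 and 1277.02 for Lgmn, and the 1 cell of capture 3 had 410.88 and 3361.02, within or above the range of the tested captures.

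The 4 myeloid cells with Col1a1 at 1000 FPKM or above had a median Laptm5 of 167 FPKM, against 632 in the other 23. Their median Lgmn was 284 against 1356, Atp6v0c 617 against 1320 and Cd63 2884 against 1810. Per the study's methods, wells seen under the microscope with more than 1 cell were excluded, and no doublet caller was run here.

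Mcoln1 had a mean of 410.84 FPKM in the myeloid cells of day 21 capture 2, where 1 of 3 cells had 1231.60, and was at 1.45 or less in the other myeloid captures of at least 3 cells.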
